A study of Homo sapiens with 6 samples.

Results

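The prostaglandin genes followed here are 9 rows of a table of 58978 genes measured by RNA-seq in HT29, a human cell line established from a colorectal adenocarcinoma: PLA2G4A, PTGS1, PTGS2, PTGES, PTGES2, PTGES3, PTGER4, HPGD and PTGR1. They were matched by gene name, and all 9 were found. The set was chosen by a measured value, the higher count of PTGS2 in cells with the FITM2 hairpin, so the fold changes of these genes, and whether each passed the call rule of the whole table, are given as a description and are no independent test. The 6 libraries fall into 3 of cells with a short hairpin against FITM2 (shFITM2, labelled as a FITM2 knockdown) and 3 of cells with a control hairpin (shCTRL, labelled wild type), all untreated and grown in McCoy's 5A medium with serum and antibiotics. FITM2 is a membrane protein of the endoplasmic reticulum needed for lipid droplet formation. The labels do not give the number of hairpins, or whether each line is a clone or a pool. They also do not say whether the replicates were separate cultures, so the spread between libraries may be technical.

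Prostaglandins are short-lived lipid signals made from arachidonic acid. Cytosolic phospholipase A2 (PLA2G4A) frees arachidonic acid from membrane phospholipids, the cyclooxygenases PTGS1 and PTGS2 turn it into prostaglandin H2, and terminal synthases turn that into prostaglandin E2 and the other prostanoids. Prostaglandin E2 acts through surface receptors such as EP4 (PTGER4), and is inactivated inside cells by 15-hydroxyprostaglandin dehydrogenase (HPGD) and the reductases that follow it. In the large bowel PTGS2 is an inducible gene that is often raised in tumours, and HPGD is a gene whose loss in tumours slows prostaglandin breakdown.

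The libraries held 16964075 to 18263911 counts in shFITM2 and 17176487 to 18855731 in shCTRL. FITM2 itself averaged 5.25 ± 0.63 CPM (read counts scaled for depth, on TMM library sizes) in shFITM2 and 11.4 ± 1.59 CPM in shCTRL (mean ± SD, 3 libraries a group, as throughout). One library stood apart from its group: on the first principal component of all tested genes (64.7% of variance) the shFITM2 libraries lay at 28.8 to 36.5, shCTRL replicates 1 and 2 at −39.0 and −49.4, and shCTRL replicate 3 at −10.5. Fold changes over all genes also followed the GC content of transcripts, so a second, GC-adjusted fit carried as an offset a smooth curve of each library's deviation on transcript GC content. Calls were made where edgeR's quasi-likelihood test over the whole table gave an adjusted p under 0.05. That rule called 48.7% of 14809 genes in the group fit (24.2% higher and 24.5% lower in shFITM2) and 29.5% of 14635 in the GC-adjusted fit (12.2% higher and 17.3% lower).

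PTGS2 mRNA was 1.99-fold higher in shFITM2 cells, while the groups overlapped for PTGS1, the other cyclooxygenase. The phospholipase gene PLA2G4A and the co-chaperone gene PTGES3 were lower in shFITM2, PTGES2 was higher in the group fit, and the breakdown enzyme gene HPGD was lower there. The directions of PTGES2 and HPGD turned over after GC adjustment, and those of PTGS2, PLA2G4A and PTGES3 did not. With that adjustment PTGES2 was called lower, and HPGD, at 0.08 ± 0.0572, was not called. The GC-adjusted call of PLA2G4A (−0.20 ± 0.073) was lost under several alternatives, and that of PTGES3 (−0.27 ± 0.0439) under none. Of the 8 genes that passed the filter on low counts, 2 were called higher and 3 lower in the group fit. The GC-adjusted count was also 2 higher and 3 lower, in part other genes. No reading of these counts against the background shares is possible, because the contrast itself chose the set. PTGER4 had too few counts to pass the filter.

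**Figure D1:**
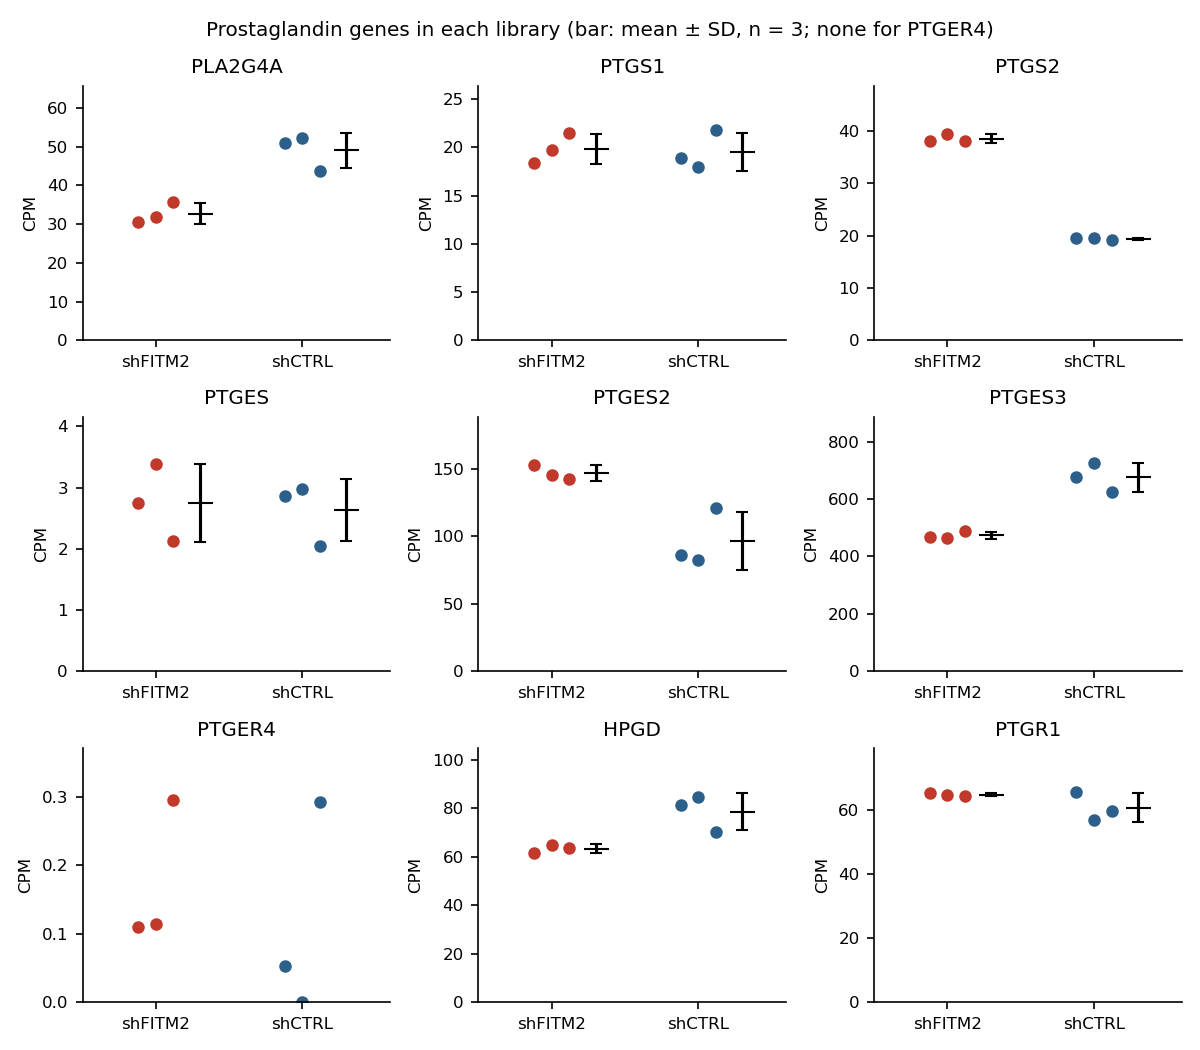
CPM of each of the 9 genes (vertical axes, each starting at 0) in the 3 shFITM2 libraries (red) and the 3 shCTRL libraries (blue), with mean and SD beside the points, except for PTGER4. PTGS2 lies at 38.0 to 39.5 CPM in shFITM2 and 19.1 to 19.6 CPM in shCTRL, and PTGS1 overlaps between the groups.

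PTGS2 (ENSG00000073756, chromosome 1, 186671791 to 186680427, minus strand, GRCh38) encodes cyclooxygenase-2, the inducible enzyme of prostaglandin H2 synthesis. It had 693, 687 and 647 reads in the shFITM2 libraries, against 369, 361 and 326 reads in the shCTRL libraries. In CPM these were 38.0, 39.5 and 38.2 in shFITM2, against 19.6, 19.5 and 19.1 in shCTRL. The groups lay far apart and each was tight, shCTRL replicate 3 included. The means were 38.6 ± 0.81 CPM in shFITM2 and 19.4 ± 0.24 CPM in shCTRL, a 1.99-fold difference. In log2 the difference was 0.99 ± 0.085 (SE) in the group fit and 1.43 ± 0.085 after GC adjustment. In bulk libraries such as these, more cells with PTGS2 mRNA and more PTGS2 mRNA per cell cannot be told apart.

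PTGS1 (ENSG00000095303, chromosome 9, 122370530 to 122395703, plus strand) encodes cyclooxygenase-1, the enzyme that most tissues make at a steady level. It had 18.4, 19.7 and 21.5 CPM in shFITM2, against 18.9, 18.0 and 21.8 CPM in shCTRL. The groups overlapped, and the means were 19.9 ± 1.54 CPM in shFITM2 and 19.5 ± 1.98 CPM in shCTRL. The log2 fold change was 0.02 ± 0.11 in the group fit and −0.09 ± 0.1 after GC adjustment, and PTGS1 was called in neither. In shFITM2 each library thus held 2.07, 2.00 and 1.78 PTGS2 reads for each PTGS1 read, against 1.03, 1.09 and 0.879 in shCTRL. This ratio does not depend on library size, and its means were 1.95 ± 0.153 in shFITM2 and 1.00 ± 0.108 in shCTRL. With PTGS2 chosen for its rise, the gap in this ratio is no separate result.

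The start regions of the cyclooxygenase genes are printed because the groups lay apart for PTGS2 and overlapped for PTGS1, and that of PLA2G4A because it lies next to PTGS2 on chromosome 1 and was lower. Each is a RefSeq window of 300 bases (GRCh38.p14), from 250 bases before an annotated start to 50 from it, written 5′ to 3′ on the gene's strand. PTGS1 has a pair of RefSeq starts, and the table's gene begins near the upstream one. Capitals mark 4 searched motifs on either strand: the TATA box (letters TATAAA), a C/EBP-type site (letters TTNCGCAA), the half-site of the cAMP response element (letters CGTCA) and the E-box (letters CANNTG). The windows are chr1:186680374-186680673 for PTGS2 (minus strand), chr9:122370283-122370582 and chr9:122375052-122375351 for PTGS1 (plus strand) and chr1:186828699-186828998 for PLA2G4A (plus strand).
PTGS2: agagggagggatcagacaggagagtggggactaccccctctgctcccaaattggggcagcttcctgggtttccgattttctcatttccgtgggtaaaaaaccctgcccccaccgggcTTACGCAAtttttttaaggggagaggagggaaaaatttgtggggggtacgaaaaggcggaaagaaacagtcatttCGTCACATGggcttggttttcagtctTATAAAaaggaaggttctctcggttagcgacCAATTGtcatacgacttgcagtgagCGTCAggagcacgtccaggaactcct
PTGS1, upstream start: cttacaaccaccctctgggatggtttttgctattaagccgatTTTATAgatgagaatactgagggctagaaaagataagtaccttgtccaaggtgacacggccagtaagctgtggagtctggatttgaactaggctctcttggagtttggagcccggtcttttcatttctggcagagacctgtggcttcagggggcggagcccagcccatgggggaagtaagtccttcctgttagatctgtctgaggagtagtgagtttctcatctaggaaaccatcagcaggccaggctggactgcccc
PTGS1, downstream start: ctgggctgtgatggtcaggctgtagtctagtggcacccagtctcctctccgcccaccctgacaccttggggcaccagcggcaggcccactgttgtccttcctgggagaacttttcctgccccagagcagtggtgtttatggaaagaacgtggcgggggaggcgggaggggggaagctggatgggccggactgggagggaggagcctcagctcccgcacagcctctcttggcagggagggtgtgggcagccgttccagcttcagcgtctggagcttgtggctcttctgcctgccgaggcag
PLA2G4A: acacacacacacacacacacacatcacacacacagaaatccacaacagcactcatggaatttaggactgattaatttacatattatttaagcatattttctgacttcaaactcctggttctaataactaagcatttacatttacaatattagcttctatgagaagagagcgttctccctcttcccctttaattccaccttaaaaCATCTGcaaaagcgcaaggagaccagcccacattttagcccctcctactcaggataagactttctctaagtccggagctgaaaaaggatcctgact

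The PTGS2 window held all 4 motifs, in 6 matches. Counted with the annotated start as base 1 and the base before it as −1, a TATA box began at −32, a C/EBP-type match at −133, CGTCA at −58 and again at 25, and E-boxes at −55 and −1. The CGTCA at −58 and the E-box at −55 share bases. The upstream PTGS1 window held TATAAA on the opposite strand alone, first base −208, and the downstream PTGS1 window held no match. The PLA2G4A window held 1 E-box, at −46. Over all 35116 RefSeq windows of this length, 11.5% held TATAAA, 0.891% the C/EBP-type letters, 24.6% CGTCA and 68.7% an E-box. The 4 motifs were picked and no others were searched. The difference in matches between these windows therefore depends on that choice and is no result about them. These are matches of letters alone, with no measure of binding, and their link to the expression values was not tested.

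PTGS2 lay well off the GC trend of the data. Its transcript has 36.9% GC, in the lowest of 10 equal bins of the tested genes by GC (27.8% to 38.5% GC, 1464 genes), where the median log2 fold change was −0.47 and 1.16% of genes were called higher against 65.1% called lower. PTGES2, at 65.7% GC, lay in the highest bin, where the median log2 fold change was 0.70, close to its own 0.60. HPGD (38.8% GC) and PLA2G4A (39.0% GC) shared the second bin, with a median of −0.39, and their own values were −0.31 and −0.58. PTGES3 (42.9% GC) and PTGR1 (42.8% GC) shared the third, with a median of −0.31, and had −0.51 and 0.09. In the group fit 780 of 14809 genes (5.27%) had a larger log2 fold change than PTGS2, and after GC adjustment 75 of 14635 (0.512%). Because PTGS2 was chosen for its rise in this contrast, its rank and its place in its bin are descriptions and test nothing.

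**Figure D2:**
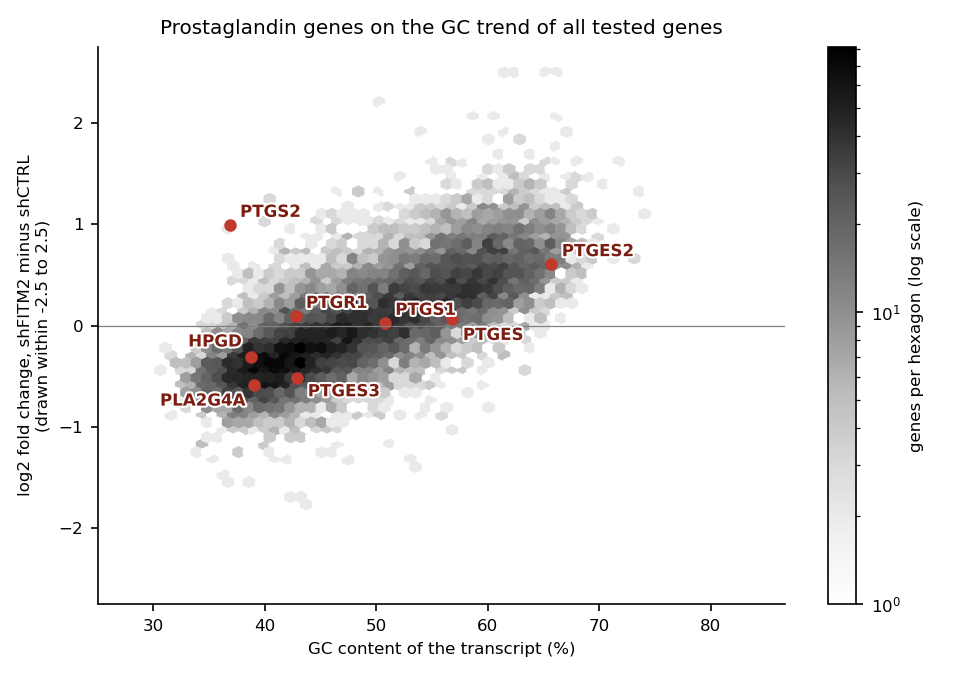
Transcript GC content in percent (horizontal axis) and log2 fold change of shFITM2 minus shCTRL (vertical axis) for all tested genes with a GC value, as grey hexagons on a log scale of gene number, with 8 prostaglandin genes in red and values beyond the axis range drawn at its edge. PTGS2, at 36.9% GC and 0.99, sits above the grey trend, and PTGES2, at 65.7% GC and 0.60, sits within it.

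PLA2G4A (ENSG00000116711, chromosome 1, 186828953 to 186988981, plus strand), the calcium-dependent phospholipase that frees arachidonic acid, had 30.5, 31.7 and 35.8 CPM in shFITM2, against 51.0, 52.1 and 43.8 CPM in shCTRL. Every shFITM2 library lay below every shCTRL library, with shFITM2 replicate 3 and shCTRL replicate 3 nearest to each other. In log2 the difference was −0.58 ± 0.099 in the group fit, called, and −0.20 ± 0.073 after GC adjustment. The GC-adjusted call was lost with length in the offset as well (−0.19), with the replicate number as a block (−0.20), and when any library except shCTRL replicate 3 was left out (−0.25 to −0.18 over the 6 left-out libraries). PLA2G4A starts 148526 bases from the start of PTGS2, on the opposite strand. The lncRNA gene PACERR, which starts just upstream of PTGS2 and runs away from it, had 7, 5 and 4 reads in shFITM2, against 17, 12 and 4 in shCTRL. The ratio of PTGS2 to PLA2G4A reads was 1.19 ± 0.104 in shFITM2 and 0.398 ± 0.0335 in shCTRL, again with the chosen gene as numerator.

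The terminal synthases of prostaglandin E2 went different ways. In GRCh38, PTGES lies on chromosome 9 (129738331 to 129753047, minus strand), PTGES2 on chromosome 9 (128120693 to 128128462, minus strand) and PTGES3 on chromosome 12 (56663341 to 56688408, minus strand). PTGES, the inducible membrane-bound synthase that is usually paired with PTGS2, was rare, with 50, 59 and 36 reads in shFITM2, against 54, 55 and 35 reads in shCTRL. Its groups overlapped, at 2.75 ± 0.635 CPM in shFITM2 and 2.63 ± 0.503 CPM in shCTRL. The log2 fold change was 0.06 ± 0.253 in the group fit and −0.36 ± 0.261 after GC adjustment, called in neither, and its SE leaves changes of this size in either direction unresolved.

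PTGES2, the other membrane-associated synthase, which also binds haem, had 153, 145 and 142 CPM in shFITM2, against 86.5, 82.6 and 121 CPM in shCTRL. Every shFITM2 library was above every shCTRL library, and shCTRL replicate 3 was well above the other shCTRL libraries. In log2 the difference was 0.60 ± 0.136 in the group fit, called, and 0.79 ± 0.0602 without shCTRL replicate 3. After GC adjustment PTGES2 was called lower, at −0.18 ± 0.0487, a call lost without shFITM2 replicate 2 (−0.18). PTGES3, the cytosolic synthase better known as p23, a co-chaperone of HSP90, was the most abundant of the set. It had 468, 464 and 487 CPM in shFITM2, against 676, 724 and 625 CPM in shCTRL, with no overlap between the groups. The log2 fold change was −0.51 ± 0.0678 in the group fit and −0.27 ± 0.0439 after GC adjustment, called in both and with each library left out. PTGES3 made up 55.6% to 56.9% of the reads of the 9 genes in shFITM2 and 64.9% to 69.6% in shCTRL. Its processed pseudogene PTGES3P1 had 96 to 126 reads a library in shFITM2 and 84 to 193 in shCTRL, beside 8069 to 8527 in shFITM2 and 10655 to 13386 in shCTRL for PTGES3 itself.

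**Figure D3:**
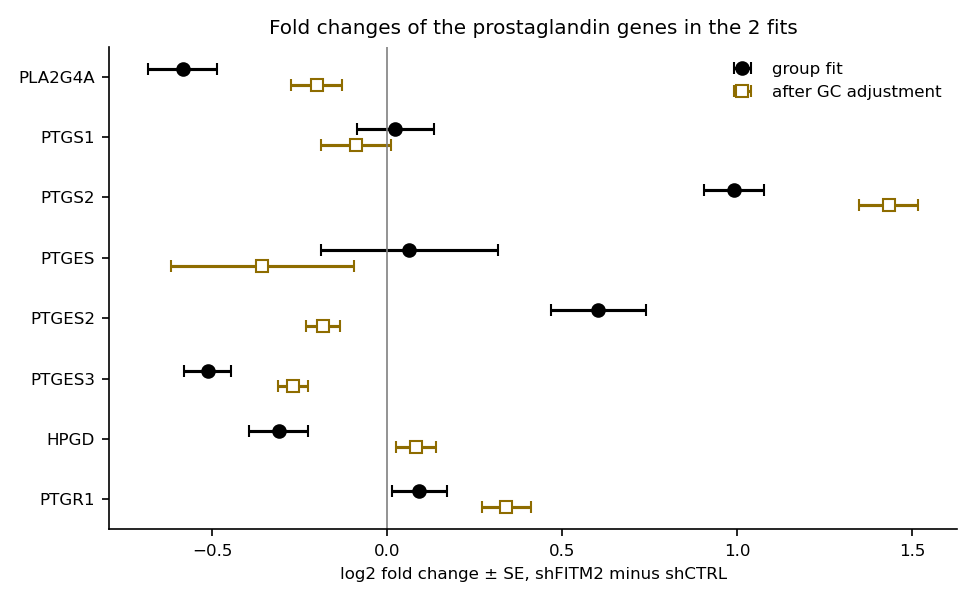
Log2 fold changes of shFITM2 minus shCTRL with their SE (horizontal axis) for the 8 genes that passed the filter, in the group fit (black circles) and after GC adjustment (open squares). PTGS2 is at 0.99 and 1.43, and PTGES2 (0.60 and −0.18) and HPGD (−0.31 and 0.08) change sides.

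HPGD (ENSG00000164120, chromosome 4, 174490177 to 174523154, minus strand), the NAD-dependent enzyme that begins prostaglandin breakdown, had 61.5, 65.0 and 63.8 CPM in shFITM2, against 81.2, 84.5 and 70.1 CPM in shCTRL. The groups did not overlap, and shCTRL replicate 3 was nearest to shFITM2. In log2 the difference was −0.31 ± 0.0843 in the group fit, called, although not without shFITM2 replicate 1 (−0.29). After GC adjustment it was 0.08 ± 0.0572, not called. PTGR1 (chromosome 9, 111549722 to 111599893, minus strand), a reductase that acts after HPGD and also on leukotriene B4, had 65.4, 65.0 and 64.4 CPM in shFITM2, against 65.8, 57.0 and 59.9 CPM in shCTRL. The groups overlapped through shCTRL replicate 1, and the log2 fold change was 0.09 ± 0.0784, not called. After GC adjustment PTGR1 was called higher, at 0.34 ± 0.069, and this held with each library left out (0.27 to 0.39). Over all tested genes, every shFITM2 library lay above every shCTRL library for 29.1% of genes and below for 29.9%, 59.0% in all. In the set of 9 this was so for PTGS2 and PTGES2 above, and for PLA2G4A, PTGES3 and HPGD below.

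The ratio of 1 synthesis mRNA, PTGS2, to 1 breakdown mRNA, HPGD, can be read within each library. There were 0.619, 0.608 and 0.598 PTGS2 reads for each HPGD read in shFITM2, against 0.241, 0.231 and 0.273 in shCTRL. The groups were well apart, with means of 0.608 ± 0.0104 in shFITM2 and 0.248 ± 0.0219 in shCTRL. Since PTGS2 was chosen for its rise, this gap follows in part from that choice. These ratios are of reads and are not scaled for gene length. They say nothing of enzyme activity or prostaglandin levels, which were not measured in the data used here. Nor do they stand for the pathway. In the group fit PLA2G4A (−0.58) and PTGES3 (−0.51) were lower, PTGES2 (0.60) was higher, and PTGS1, PTGES and PTGR1 were not called. After GC adjustment HPGD was not called (0.08) and PTGR1 was called higher (0.34).

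**Figure D4:**
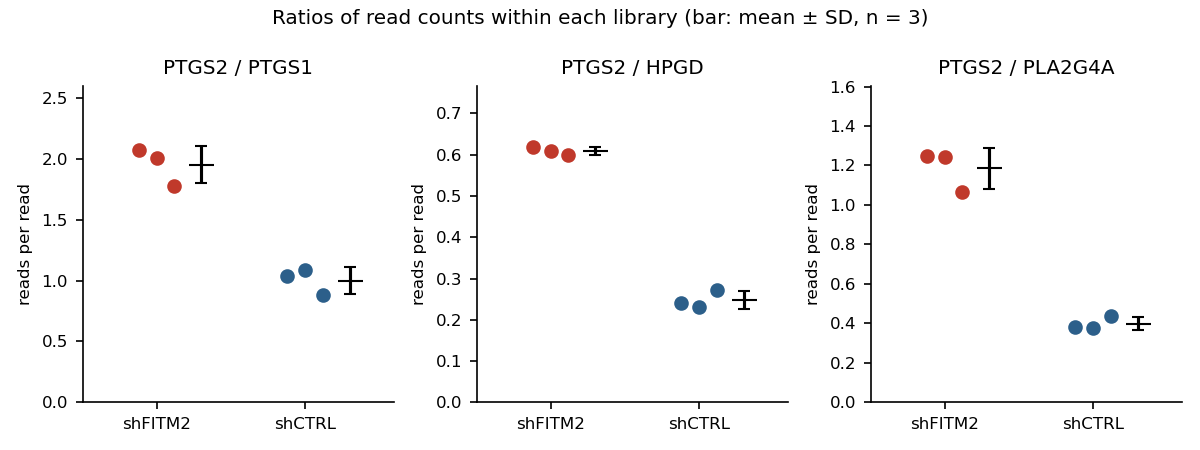
Ratios of PTGS2 reads to PTGS1, HPGD and PLA2G4A reads in each library (vertical axes, starting at 0), for shFITM2 (red, left) and shCTRL (blue, right), with mean and SD. PTGS2 to HPGD lies at 0.598 to 0.619 in shFITM2 and 0.231 to 0.273 in shCTRL, and no panel has overlapping groups. Every ratio has PTGS2, chosen for its rise, as numerator, so the gaps are no separate result.

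Few reads came from prostanoid receptor genes. PTGER4 (chromosome 5, 40679498 to 40693735, plus strand), the EP4 receptor of prostaglandin E2, had 2, 2 and 5 reads in the shFITM2 libraries, against 1, 0 and 5 in the shCTRL libraries. The groups overlapped, and no fold change is given at this depth. The whole of PTGER4 lies within TTC33 on the opposite strand, which had 1438 reads over the 6 libraries. How reads in both genes were counted is not given in the sources used here. PTGER2 (the EP2 receptor) and TBXA2R (the thromboxane receptor) had 0 reads in every library, where a count of 0 allows up to 0.159 to 0.177 CPM (3 counts of a library's total, for counting error alone). PTGER3 had 2 reads in all, PTGFR 1 and PTGDR 1, while PTGER1 had 2, 10 and 10 reads in shFITM2 and 1, 2 and 7 in shCTRL.

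Per kilobase of exon, on the scale of CPM per kb, the levels in shFITM2 ran in this order: PTGES3 139 ± 3.62, PTGES2 48.4 ± 1.84, PTGR1 17.3 ± 0.137, HPGD 11.5 ± 0.322, PLA2G4A 11.4 ± 0.961, PTGS2 7.32 ± 0.155, PTGS1 3.43 ± 0.267, PTGES 1.45 ± 0.335 and PTGER4 0.0437 ± 0.0266. HPGD and PLA2G4A overlapped over libraries, and no other neighbours in that order did. In shCTRL the order was PTGES3 199 ± 14.6, PTGES2 31.9 ± 7.03, PLA2G4A 17.0 ± 1.57, PTGR1 16.2 ± 1.19, HPGD 14.2 ± 1.37, PTGS2 3.68 ± 0.0457, PTGS1 3.38 ± 0.342, PTGES 1.39 ± 0.265 and PTGER4 0.0291 ± 0.0395. There PLA2G4A, PTGR1 and HPGD overlapped with one another, and so did PTGS2 (3.63 to 3.71) and PTGS1 (3.10 to 3.76). The cyclooxygenases thus had overlapping levels in shCTRL and separate levels in shFITM2 (7.22 to 7.50 for PTGS2 and 3.18 to 3.71 for PTGS1).

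The genes whose profile over the 6 libraries was nearest to that of PTGS2, by Euclidean distance of log2 CPM from the shCTRL mean among 11515 other protein-coding genes, were GSN, RGL2, ENO2, TMC4 and GPRC5C. Their distances ran from 0.111 to 0.143, and Pearson's r with PTGS2 over the 6 libraries from 0.994 to 0.997, which describes 2 groups of 3 libraries and carries no test. GSN (gelsolin, an actin-severing protein) had 319 ± 4.13 CPM in shFITM2 and 165 ± 4.49 CPM in shCTRL, and ENO2 (neuron-specific enolase) 16.1 ± 0.769 CPM in shFITM2 and 8.18 ± 0.157 CPM in shCTRL. All 5 have a higher GC content than PTGS2, from 49.8% to 63.8%. After GC adjustment their log2 fold changes were 0.88 for GSN, 0.45 for RGL2, 0.65 for ENO2, 0.35 for TMC4 and 0.31 for GPRC5C, against 1.43 for PTGS2. GSN, RGL2 and ENO2 overlap RAB14, PFDN6 and LRRC23, whose reads may be included.

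Other enzymes, carriers and receptors of the prostanoids were mostly not detected well enough to test. Of 24 such genes 10 passed the filter, and 3 were called higher and 2 lower, beside 24.2% and 24.5% of all tested genes. Their median log2 fold change was 0.04, beside −0.00020 over all tested genes. AKR1C1 and AKR1C2, aldo-keto reductases, rose by 0.48 and 0.41 (log2; adjusted p = 0.00133 and 0.00201, edgeR) and by 0.74 and 0.75 after GC adjustment (adjusted p = 0.000446 and 2.2e-05). AKR1C3, the family member that makes prostaglandin F-type products, had 275 ± 19.3 CPM in shFITM2 and 290 ± 17.0 CPM in shCTRL, that is −0.07 in log2 (adjusted p = 0.437) and 0.23 after GC adjustment (adjusted p = 0.043). That last call was lost with length added (adjusted p = 0.0737), and without shFITM2 replicate 2 (0.129) or 3 (0.131) or shCTRL replicate 1 (0.144) or 2 (0.0966). The AKR1C paralogs are alike in sequence, and how the counting divided any reads they share is unknown. PRXL2B, a prostamide and prostaglandin F synthase, rose by 0.69 (adjusted p = 0.00446, edgeR), a call lost after GC adjustment (0.08, adjusted p = 0.355) unless shCTRL replicate 3 was left out (adjusted p = 0.0464).

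ABCC4, a pump that exports prostaglandin E2, fell to 123 ± 5.48 CPM in shFITM2, against 150 ± 13.9 CPM in shCTRL (−0.29, adjusted p = 0.0104, edgeR). It was no longer called after GC adjustment (−0.06, adjusted p = 0.421), nor without shCTRL replicate 1 or shFITM2 replicate 1 (adjusted p = 0.0591 and 0.0615). ZADH2 (also named PTGR3), a prostaglandin reductase, had −0.41 and, GC-adjusted, −0.20 (adjusted p = 0.00287 and 0.0317, edgeR). Its GC-adjusted call was lost without shFITM2 replicate 1 (0.0858) or 2 (0.197) or shCTRL replicate 1 (0.101) or 2 (0.0729). CBR1, a carbonyl reductase that uses prostaglandin E2, had −0.16 (adjusted p = 0.17) and −0.34 after GC adjustment (adjusted p = 0.00553). TBXAS1, thromboxane synthase, had 0.31 and 0.05 and was called in neither fit (adjusted p = 0.359 and 0.909, edgeR). CBR1 and TBXAS1 overlap SETD4 and HIPK2 on the opposite strand. The uptake carrier SLCO2A1 had 0 reads in every library, and the synthase genes PTGIS, PTGDS and HPGDS had 7, 4 and 1 reads over all 6. After GC adjustment the list had 3 called higher and 2 lower, beside 12.2% and 17.3% of all genes. Its median was then 0.04, beside −0.03 over all genes.

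Arachidonate release and re-esterification genes other than PLA2G4A had 11 higher and 6 lower calls among 20 tested (25 listed; median log2 fold change 0.35). After GC adjustment 2 were higher and 7 lower, with a median of −0.03. The shares over all genes were 24.2% higher and 24.5% lower, and 12.2% and 17.3% after GC adjustment. ACSL4, the acyl-CoA synthetase that prefers arachidonate, fell to 72.2 ± 4.48 CPM in shFITM2, against 125 ± 10.5 CPM in shCTRL (log2 fold change −0.79, adjusted p = 5.99e-05, edgeR, and −0.36, adjusted p = 0.000118, after GC adjustment). PLA2G12A, a secreted phospholipase A2 gene, had −0.75 and −0.41 (adjusted p = 0.00052 and 0.00275), and ACSL3, another acyl-CoA synthetase, −0.55 and −0.14 (adjusted p = 0.000243 and 0.0251). The GC-adjusted call of ACSL3 was lost without any 1 library except shCTRL replicate 3 (adjusted p = 0.0546 to 0.126). RARRES3 (also named PLAAT4), a phospholipase and acyltransferase, rose by 0.73 and 0.46 (adjusted p = 0.000507 and 0.00529). MGLL, the lipase that frees arachidonate from 2-arachidonoylglycerol, was called in opposite directions, 0.27 in the group fit and −0.20 after GC adjustment (adjusted p = 0.0068 and 0.00694, edgeR). ABHD12, a lysophospholipid lipase, had 0.45 and −0.09 (adjusted p = 0.000671 and 0.221), and was called lower after GC adjustment without shCTRL replicate 3 (adjusted p = 0.0262). PLA2G2A, a secreted phospholipase gene of the gut, had 0.755 ± 0.262 CPM in shFITM2 and 0.361 ± 0.206 CPM in shCTRL and was called in neither fit (adjusted p = 0.122 and 0.342). MGLL and ABHD12 overlap SEC61A1 and PYGB on the opposite strand.

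**Figure D5:**
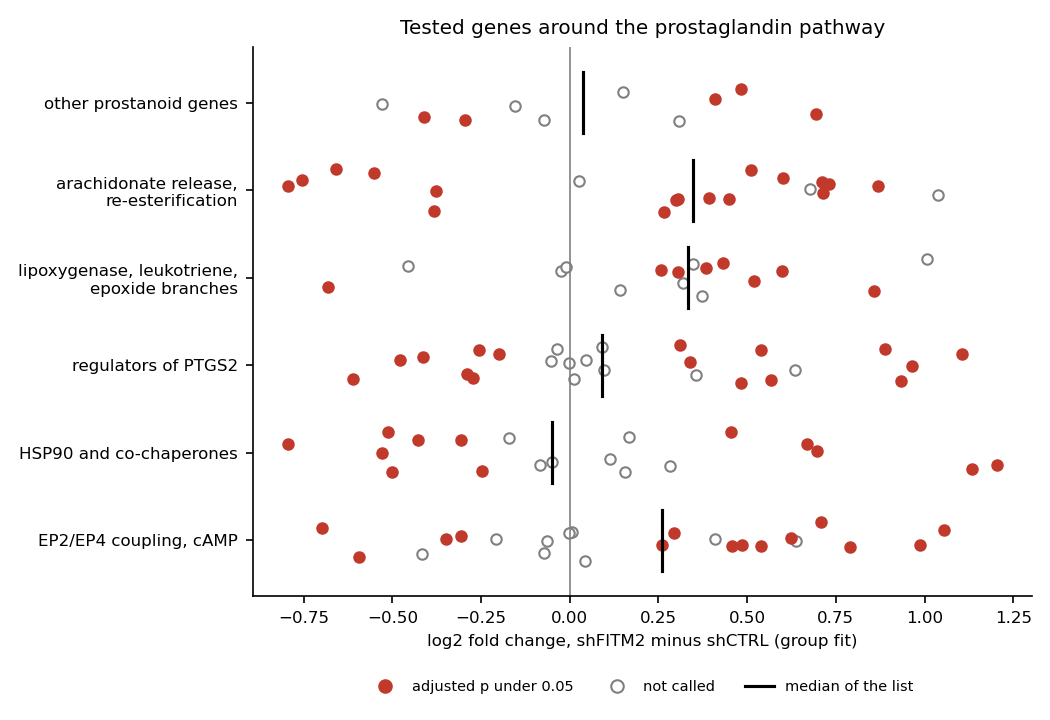
Log2 fold changes of shFITM2 minus shCTRL in the group fit (horizontal axis) for the tested genes of 6 lists around the prostaglandin pathway, 1 point per gene, filled where called, with the list median as a line. Each list has called genes on both sides of 0, and their medians run from −0.05 to 0.35.

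The lipoxygenase, leukotriene and epoxide branches, which use the same arachidonic acid, had 7 genes called higher and 1 lower of 16 tested (28 listed). Their median log2 fold change was 0.33, and after GC adjustment 3 were called higher and 3 lower (median 0.02). All tested genes had 24.2% higher and 24.5% lower, and 12.2% and 17.3% after GC adjustment. MGST1, a microsomal glutathione transferase, fell to 214 ± 11.9 CPM in shFITM2, against 344 ± 48.1 CPM in shCTRL (−0.68 and −0.41 after GC adjustment, adjusted p = 0.000298 and 0.000269, edgeR). CYP4F12, a fatty acid hydroxylase, rose by 0.43 and 0.44 (adjusted p = 0.0105 and 0.00897). MGST3 rose by 0.38 and 0.58 (adjusted p = 0.0111 and 0.000484), and in the group fit it missed the threshold when shFITM2 replicate 2 (adjusted p = 0.0649), shFITM2 replicate 3 (0.0533) or shCTRL replicate 1 (0.0508) was left out. GGT1, a gamma-glutamyltransferase, had 0.86 and 0.23, and EPHX1, the microsomal epoxide hydrolase, 0.26 and −0.13, both called in the group fit alone (adjusted p = 0.00113 and 0.00587, edgeR). EPHX1 was called lower with GC and length adjusted (adjusted p = 0.0473), and after GC adjustment without shCTRL replicate 3 (0.00055). ALOX5, the 5-lipoxygenase gene, had 40.0 ± 4.27 CPM in shFITM2 and 32.1 ± 5.10 CPM in shCTRL (0.32, adjusted p = 0.0514, edgeR, and −0.03 after GC adjustment). It was called without shCTRL replicate 3 or shFITM2 replicate 3 (adjusted p = 0.000534 and 0.0429). With all libraries it was also called with DESeq2 size factors (adjusted p = 0.0454), library totals (0.0491), no expression filter (0.00568), DESeq2 (0.0433) and limma-voom (0.0497), while its activator ALOX5AP had 2 reads in all libraries. LTA4H, which makes leukotriene B4, had −0.02 and 0.28 (adjusted p = 0.805 and 0.00181). GGT1 and EPHX1 overlap SNRPD3 and TMEM63A.

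Known regulators of PTGS2 transcription and mRNA decay had 9 higher and 7 lower calls among 25 tested (26 listed, median log2 fold change 0.09). GC-adjusted, they had 4 and 1 (median 0.07). Shares over all genes were 24.2% higher and 24.5% lower, and 12.2% and 17.3% after GC adjustment. The C/EBP factor genes CEBPD and CEBPA had 0.96 and 0.93 in the group fit (adjusted p = 0.000688 and 0.000473, edgeR) and −0.01 and 0.13 after GC adjustment, called in the group fit alone. CEBPB, the third of these factors, had 236, 252 and 235 CPM in shFITM2, against 130, 110 and 227 CPM in shCTRL. Its shCTRL replicate 3 was close to the shFITM2 libraries and the other shCTRL libraries were far below. CEBPB was not called (0.63, adjusted p = 0.134, edgeR), but was without that library (1.00, adjusted p = 3.23e-16, edgeR). That p follows removal of the outlying library and rests on the modelled spread. An exact permutation test of all 6 libraries could give no p below 0.1. With limma-voom on all libraries CEBPB was called (0.71, adjusted p = 0.0129), and its GC-adjusted value was −0.14. RELA, an NF-kB subunit, had 0.48 and 0.07, and HIF1A, the hypoxia-inducible factor, −0.61 and −0.15, both called in the group fit alone (adjusted p = 0.00142 and 0.000688). HIF1A was called after GC adjustment when shCTRL replicate 3 was left out (adjusted p = 0.000576).

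Among the RNA-binding proteins, ZFP36 (tristetraprolin), which speeds the decay of mRNAs with AU-rich elements such as that of PTGS2, had 98.2, 102 and 101 CPM in shFITM2, against 37.2, 31.2 and 71.7 CPM in shCTRL. Its difference was 1.1 in log2 (adjusted p = 0.0437, edgeR) and 0.70 after GC adjustment (adjusted p = 0.155). The group-fit call was lost without any 1 library except shCTRL replicate 3 (adjusted p = 0.075 to 0.102), and with no expression filter (0.137). Without shCTRL replicate 3, ZFP36 was called after GC adjustment too (adjusted p = 1.23e-17, edgeR). As for CEBPB, so small a p follows removal of the outlying library and rests on the modelled spread. KHSRP, another decay factor, had 0.57 and 0.06 (adjusted p = 0.000746 and 0.373). ELAVL1 (HuR), which stabilises PTGS2 mRNA, was slightly lower, at −0.20 and −0.10 (adjusted p = 0.035 and 0.24, edgeR). It was not called without shCTRL replicate 1 (adjusted p = 0.0638) or any 1 shFITM2 library (adjusted p = 0.0771, 0.145 and 0.0883 for shFITM2 replicates 1, 2 and 3). With all libraries it was also not called with the replicate number as a block (adjusted p = 0.0884), with DESeq2 (0.0695) or with no expression filter (0.0803).

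HSP90 and its co-chaperones, the partners of PTGES3 in its p23 role, had 5 higher and 7 lower calls among 19 tested (20 listed). Their median log2 fold change was −0.05, and after GC adjustment the calls were 3 and 7 (median 0.01). Among all genes 24.2% were higher and 24.5% lower, and 12.2% and 17.3% after GC adjustment. The HSP90 genes HSP90AA1 and HSP90AB1 had −0.51 and −0.31, and −0.37 and −0.30 when GC-adjusted, all called lower (adjusted p = 8.26e-05, 0.00155, 1.35e-05 and 0.000214, edgeR). HSPA8, the constitutive HSP70, had −0.43 and −0.36, and HSPA4 −0.50 and −0.24. CHORDC1, an HSP90 co-chaperone, had −0.79 and −0.31, and these 3 genes were called lower in both fits (adjusted p at most 0.0053). UNC45A, a myosin co-chaperone, had 0.70 (adjusted p = 7.35e-05) and 0.14 (adjusted p = 0.142, or 0.0259 without shCTRL replicate 2), and overlaps HDDC3 on the opposite strand. HSP90 and HSPA8 genes have processed pseudogenes that may share their reads.

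Genes of EP2 and EP4 coupling and of the cAMP response had 10 higher and 4 lower calls among 23 tested (26 listed). Their median log2 fold change was 0.26, and after GC adjustment the calls were 7 and 6 (median 0.12). Beside these, 24.2% of all genes were higher and 24.5% lower, and 12.2% and 17.3% after GC adjustment. GNAS, whose main product is the stimulatory G protein, had 0.01 (adjusted p = 0.953, edgeR) and −0.49 after GC adjustment (adjusted p = 4.52e-06). GNAI2, an inhibitory G protein gene, rose by 0.54 and 0.17 (adjusted p = 0.000138 and 0.00886), and the clock gene PER1, which cAMP can induce, by 0.99 and 0.33 (adjusted p = 0.000183 and 0.0144). The GC-adjusted call of PER1 was lost without shFITM2 replicate 3 (0.26, adjusted p = 0.0968). PDE8A, a cAMP phosphodiesterase, had −0.70 and −0.44, and PRKAR2A, a regulatory subunit of protein kinase A, −0.59 and −0.46, both called in both fits (adjusted p at most 0.000184). ARRB1, an arrestin that binds receptors, had 0.49 (adjusted p = 0.000421) and 0.12 (adjusted p = 0.186). NR4A2, an orphan receptor gene induced by cAMP, had 1.05 and 1.08 (adjusted p = 0.000676 and 0.000263, edgeR). NR4A2, ALOX5AP, PTGER1, PTGDR, PTGFR and TBXA2R were named after their values were seen.

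The summed level of 9 leukocyte and macrophage markers was 11.1 to 14.1 CPM in shFITM2 and 9.95 to 13.3 CPM in shCTRL, most of it CD14, and TYROBP was at 0 throughout. The 9 fibroblast and endothelial markers summed to 2.19 to 2.47 CPM in shFITM2 and 1.85 to 3.64 CPM in shCTRL, with COL1A2 and PDGFRA at 0. The 12 epithelial markers summed to 14452 to 15265 CPM in shFITM2 and 10511 to 12702 CPM in shCTRL. In the group fit 9 were called higher and 1 lower, beside 24.2% and 24.5% of all genes. After GC adjustment 4 were higher and 2 lower, beside 12.2% and 17.3% of all genes. The 6 detected markers of tuft cells, chemosensory cells of the gut that express PTGS1, summed to 9.49 to 12.6 CPM in shFITM2 and 6.73 to 8.51 CPM in shCTRL, with no overlap. Of the 4 tested, POU2F3 (0.71 and 0.67, adjusted p = 0.033 and 0.0443, edgeR) was called higher in both fits and SH2D6 (1.13 and 0.60, adjusted p = 0.0425 and 0.355) in the group fit alone. TRPM5 had 0.35 and −0.36 and AVIL 0.27 and 0.13, called in neither, and BMX was at 0. The part of these cell markers in the values of the prostaglandin genes was not tested.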

How the data were processed

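RNA-seq libraries came from total RNA with a directional kit, per the labels' protocols. The authors deposited raw read counts per gene, with gene length as another column. Per the submitters' processing notes, the tools were featureCounts 1.5.0-p3, HISAT2 2.0.5, DESeq2 1.16.1 and StringTie 1.3.3b, and the build hg19. Not given in the sources used here: strand setting and handling of shared reads. All 58735 genes with a GENCODE 29 identifier had its GRCh38 start, end and strand.

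Counts were tested with edgeR 4.0.16 (limma 3.58.1, R 4.3.3): TMM scaling, an expression filter (minimum count 10, total 15), the quasi-likelihood F-test with group as the sole term, with p-values adjusted by Benjamini-Hochberg across the tested table. The GC adjustment was an offset, a smoothing spline (6 degrees of freedom) of log2 CPM deviations (prior count 2) on GC content of 1 GENCODE 29 transcript per gene. Exon-union length gave CPM per kb. The procedures were tested on simulated data. The simulation gave every gene and library the same spread beyond sampling noise, unlike these data, so it does not vouch for the calls made here. Alternatives were other size factors, other filters, DESeq2 1.42.0, limma-voom, a stricter threshold, GC and length offsets, a replicate block and leaving out each library. Each library counted as 1 sample. Pairs of replicates differed beyond sampling noise (chi-square per gene 2.44 to 4.74 in shFITM2, where noise gives about 1). In shCTRL it was 6.08 for replicates 1 and 2, and 23.1 and 32.7 for pairs with replicate 3. Such spread can be technical and does not show that replicates were separate cultures. Replicate numbers did not pair the samples (correlations of deviations −0.04, −0.0064 and −0.07 for replicates 1, 2 and 3).

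The genes and lists were chosen with earlier results of these data known. The text names the 9 genes, FITM2, up to 5 tested genes with the smallest p per list, a set of pathway genes, and the 5 profiles nearest to PTGS2. PLAAT3 and PLAAT4 were matched by identifier. One cell marker is not reported here.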

Additional observations from a re-analysis of the deposited data

How the results depend on the processing

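The direction of PTGS2, PTGES3 and PLA2G4A held under every alternative run. Prostaglandin genes whose values turned, or moved by more than the SD between libraries, are given, and other named genes whose values turned. The values are log2 fold changes with GC adjustment, with GC and length, and with the replicate block and GC. They were 1.43, 1.45 and 1.43 for PTGS2, −0.18, −0.19 and −0.18 for PTGES2, and 0.083, 0.093 and 0.084 for HPGD. PTGES had −0.36, −0.37 and −0.36, and PTGR1 had 0.34, 0.34 and 0.34. PLA2G4A had −0.20, −0.19 and −0.20, and PTGES3 had −0.27, −0.26 and −0.27. For the other genes the same 3 settings are given. They were −0.089, −0.093 and −0.088 for ABHD12, 0.23, 0.22 and 0.24 for AKR1C3, −0.028, −0.026 and −0.026 for ALOX5, −0.14, −0.15 and −0.13 for CEBPB, and −0.013, −0.016 and −0.012 for CEBPD. They were −0.13, −0.15 and −0.13 for EPHX1, −0.49, −0.48 and −0.49 for GNAS, 0.28, 0.31 and 0.28 for LTA4H, and −0.20, −0.18 and −0.20 for MGLL. The cause was not tested.

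Leaving out 1 library, with or without GC adjustment, gave 0.97 to 1.48 for PTGS2, −0.20 to 0.79 for PTGES2, −0.39 to 0.10 for HPGD, −0.13 to 0.50 for ABHD12, −0.11 to 0.33 for AKR1C3, −0.12 to 0.41 for ALOX5, −0.22 to 1.00 for CEBPB, −0.11 to 1.16 for CEBPD, −0.19 to 0.27 for EPHX1, −0.53 to 0.062 for GNAS, −0.074 to 0.32 for LTA4H, −0.24 to 0.29 for MGLL and −0.16 to 0.47 for TBXAS1. It gave −0.56 to 0.22 for PTGES, 0.04 to 0.39 for PTGR1, −0.67 to −0.18 for PLA2G4A and −0.57 to −0.24 for PTGES3.

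Over all genes, 1780, 1828 and 1748 were called higher in those 3 settings, and 2362 at an adjusted p under 0.01. Genes called higher were 2, 2 and 3 for arachidonate release, 3, 2 and 3 for HSP90, 3, 3 and 3 for the lipoxygenase branches (2 at 0.01) and 4, 4 and 5 for PTGS2 regulators. Genes called lower were 3, 4 and 3 for the lipoxygenase branches and 1, 1 and 2 for PTGS2 regulators (4 at 0.01), and 1 at 0.01 for the other prostanoid genes. With 1 library left out, 1170 to 4505 of all genes were higher and 1719 to 4503 lower. The ranges were 2 to 11 higher for arachidonate release, 5 to 9 higher and 3 to 7 lower for EP and cAMP genes, 2 to 6 higher for HSP90, 3 to 9 higher and 1 to 3 lower for the lipoxygenase branches, 2 to 13 higher and 1 to 7 lower for PTGS2 regulators, 1 to 2 lower for the other prostanoid genes and 1 to 3 lower for the 8 tested prostaglandin genes. These counts are not read against the shares over all genes.

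Replicate numbers did not pair the samples. With the replicate block alone, PTGS2 was at 0.99, and the same prostaglandin genes were called, in the same directions, as in the group fit. Depth limits PTGER4 and PTGES.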
